A study of Mus musculus with 2 samples.

Results

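Kit, Glp1r, Sema3c, Npr3, Aplnr, Itga1, Hmcn1, Rnf144a, Gna14 and Adgrl3 were taken as 10 identity genes of general capillary endothelial cells, out of 32285 genes counted. They were chosen by name, with earlier results of these data known. All 10 were read in endothelial cells of both libraries. This was done with and without cells that carry genes of aerocytes (Ednrb, Car4), veins (Slc6a2, Selp) or arteries (Gja5, Bmx). The study compared live CD31+/CD45- cells sorted from YUMMER1.7 melanomas, an immunogenic mouse melanoma line, in female mice of 8 to 10 weeks. The control library came from control mice and the other from Dnmt1iECKO mice (Cdh5CreERT2;Dnmt1fl/fl;ZsGreenlsl/lsl), in which tamoxifen activates Cre under the Cdh5 promoter and deletes the DNA methyltransferase Dnmt1 in endothelium. The control genotype is given as C57BL/6 in the labels and as Cre and ZsGreen carriers without the floxed Dnmt1 allele in the study's methods, and the tumours are described as subcutaneous in the labels and as lung tumours after tail vein injection in the methods. Tumours of 3 mice were pooled in each library, so each condition was 1 library and no difference between conditions could be tested.

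The alveolar capillary bed holds general capillary cells, which serve as its stem and repair cells and control vessel tone, and aerocytes, large cells specialised for gas exchange. Kit, Glp1r, Aplnr, Npr3 and Adgrl3 encode receptors, Sema3c a secreted guidance ligand, Gna14 a G protein alpha subunit of the Gq family, Itga1 a collagen-binding integrin chain, Hmcn1 the matrix protein hemicentin and Rnf144a a ubiquitin ligase. In normal lung several of them, Kit and Aplnr among them, mark general capillaries, whereas aerocytes make the apelin ligand Apln and the Kit ligand Kitl.

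The libraries held 9301 control and 9522 Dnmt1iECKO cells, with medians of 8904 and 8762 UMIs (unique molecular identifiers, 1 for each captured RNA molecule) per cell. Only 29 cell barcodes occurred in both. Endothelial cells were cells with a UMI of Cdh5 or Pecam1 and none of Ptprc, Epcam, Cspg4 or Myh11, 4848 in control and 2064 in Dnmt1iECKO, with medians of 9600 and 9755 UMIs. Excluding Ptprc alone left 5534 and 2405 cells. Levels are in CPM, UMIs of a gene per 1000000 UMIs of the summed cells. Dnmt1 itself was at 48.9 CPM in control and 26.7 in Dnmt1iECKO endothelial cells, 0.87 lower on the log2 scale. Intervals are 95% (exact Poisson for levels, exact conditional for ratios, Clopper-Pearson for shares), and they cover counting error only, not the spread between mice.

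Promoters of 3 genes are printed here because Npr3 was the gene that differed most between the libraries, and because Kit and Glp1r followed each other most closely over cell classes among the receptor genes. Each runs from 250 bases before to 50 after the first start that RefSeq lists, 5′ to 3′ on the gene's strand (GRCm38.p6), with CpG dinucleotides, the target of DNA methyltransferases, in capitals. They lie at chr15:11907322-11907621 (Npr3, minus strand), chr5:75574737-75575036 (Kit, plus strand) and chr17:30901617-30901916 (Glp1r, plus strand).
Npr3: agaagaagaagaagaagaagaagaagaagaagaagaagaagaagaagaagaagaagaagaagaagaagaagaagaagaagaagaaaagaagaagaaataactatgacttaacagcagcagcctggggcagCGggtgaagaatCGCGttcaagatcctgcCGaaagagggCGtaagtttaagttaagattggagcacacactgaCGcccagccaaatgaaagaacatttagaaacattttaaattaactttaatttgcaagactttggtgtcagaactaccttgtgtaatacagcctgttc
Kit: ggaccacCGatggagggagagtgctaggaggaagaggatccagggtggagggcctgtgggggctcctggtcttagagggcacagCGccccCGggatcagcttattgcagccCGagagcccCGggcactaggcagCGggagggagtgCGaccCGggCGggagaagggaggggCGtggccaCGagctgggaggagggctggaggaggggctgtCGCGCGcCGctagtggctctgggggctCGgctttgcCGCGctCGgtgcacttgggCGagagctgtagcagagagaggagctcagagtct
Glp1r: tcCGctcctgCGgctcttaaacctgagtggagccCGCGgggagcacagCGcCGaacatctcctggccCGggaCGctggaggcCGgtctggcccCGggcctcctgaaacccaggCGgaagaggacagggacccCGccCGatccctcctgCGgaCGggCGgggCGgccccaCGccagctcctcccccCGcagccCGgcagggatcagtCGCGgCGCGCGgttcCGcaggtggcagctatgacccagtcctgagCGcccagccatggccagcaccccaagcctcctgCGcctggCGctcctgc

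A promoter was listed for 9 of the 10 genes (not for Aplnr). The Npr3 window held 6 CpG, the Kit window 20 and the Glp1r window 29, against a median of 7 over 27025 promoters. The Npr3 window lies wholly upstream of the gene as GENCODE M21 bounds it (to 11907287), and so does the Gna14 window (from 16435762). Their CpG numbers thus hold for the RefSeq start only. Over the 9 genes the number ran from 6 in Npr3 to 42 in Sema3c, with a median of 20. The GC box GGGCGG, searched on both strands, stood in 5 of 9 windows and in 35.9% of all promoters. The ETS core GGAA stood in 6 of 9 (95.9% of all), the forkhead core TAAACA in 1 of 9 (13.4%) and TATAAA in 0 of 9 (14.2%). These are letter matches, and methylation was not measured here.

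In endothelial cells as a whole, Npr3 was lower in the Dnmt1iECKO library and the other 9 genes lay within 1.5-fold of control. Npr3 encodes the clearance receptor that removes natriuretic peptides. It was at 222 CPM in control (12365 UMIs) and 119 in Dnmt1iECKO (3057 UMIs), a log2 ratio of -0.90 (interval -0.96 to -0.85). It was the 1 gene of 10 past 1.5-fold lower, and none was past 1.5-fold higher. Of 13004 genes with at least 100 UMIs, 2.15% were past 1.5-fold lower and 7.51% past 1.5-fold higher. The median log2 ratio of the 10 genes was -0.06, and that of all 13004 genes -0.01.

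Among the other receptors, Kit, the receptor of stem cell factor, was at 298 CPM in control and 268 in Dnmt1iECKO (log2 ratio -0.16). Glp1r, the receptor of glucagon-like peptide 1, was at 274 and 266 (log2 ratio -0.04). Adgrl3, a latrophilin adhesion receptor, was at 772 and 752 (log2 ratio -0.04). With the gate used here all 3 receptors were slightly lower in Dnmt1iECKO. Over 13 alternatives Kit kept this direction, while Glp1r and Adgrl3 changed sign in 4 each. With both Cdh5 and Pecam1 required, Glp1r had a log2 ratio of 0.02 and Adgrl3 of 0.008. Aplnr, the apelin receptor, was the only 1 of these 5 receptors that was higher in Dnmt1iECKO with the gate used here. It was at 45.4 and 57.8 (log2 ratio 0.35, interval 0.26 to 0.44). It was also the gene with the fewest UMIs, and 1% of control cells held 16.5% of its UMIs.

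Among the ligand, signalling and matrix genes, Sema3c was at 1464 CPM in control and 1225 in Dnmt1iECKO (log2 ratio -0.26). Gna14 was at 104 and 109.6 (log2 ratio 0.08). Itga1 was at 1064 and 1004 (log2 ratio -0.08). Hmcn1, a matrix protein, was higher in Dnmt1iECKO and Itga1, which binds collagen, lower. Hmcn1 was at 908 and 1049.6 (log2 ratio 0.21), and Rnf144a at 362 and 333 (log2 ratio -0.12). Of the 10 intervals, 7 lay below 0 and 3 above, which says how precise the counts were and nothing of the spread between mice. With Ptprc as the only exclusion, 8 of 10 genes were lower in Dnmt1iECKO and Npr3 stood at 199.7 and 97.3 (log2 ratio -1.04), again the only one past 1.5-fold (2.31% of 14094 genes past it lower, 9.07% higher).

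Levels of the list were then compared between endothelial classes. Members and lists were chosen with earlier results of these data known. The comparison thus describes the list and is no independent check of its name. Cells without any of the 6 class genes numbered 1282 in control (26.4%) and 557 in Dnmt1iECKO (27.0%), with medians of 5912 and 6138 UMIs. Being set by absence of UMIs, this class took in shallower cells. Cells with genes of several classes numbered 465 (9.59%) and 289 (14.0%). Cells with Ednrb or Car4 and no vein or artery gene numbered 2695 (55.6%) and 913 (44.2%), with medians of 10224 and 10235 UMIs. The median log2 ratio of cells without class genes over these cells was 0.34 in control, with all 10 genes higher and 0 past 2-fold, and 0.04 in Dnmt1iECKO, with 5 higher and 0 past 2-fold. At 2-fold, 7.87% and 8.2% of all genes tested were higher. These medians followed the gate. With Ptprc as the only exclusion they were 0.0364 in control and -0.999 in Dnmt1iECKO, with both Cdh5 and Pecam1 required 0.59 and 0.57, and without cells carrying 3 markers of another type 0.47 and 0.48.

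A stricter aerocyte class, chosen after seeing the data, held cells with at least 3 of 6 aerocyte markers (Ednrb, Car4, Fibin, Tbx2, Rgs6, Apln) among 2000 UMIs drawn from each cell, 1202 in control and 370 in Dnmt1iECKO. All 10 genes were higher in cells without class genes than in these cells, in both libraries. The median log2 ratio was 1.79 in control, with 9 genes past 2-fold, and 1.29 in Dnmt1iECKO, with 7 past 2-fold, whereas 13.2% and 12.8% of all genes passed it. Kit stood at 415 CPM in control cells without class genes and 91.7 in control aerocyte-marker cells. In Dnmt1iECKO the same Kit values were 336 and 108. Gna14, at 133 and 32.7 in control, and Hmcn1, at 1172 and 306, differed by similar folds, and Itga1 had the smallest ratio, at 1203 and 608.

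**Figure D1:**
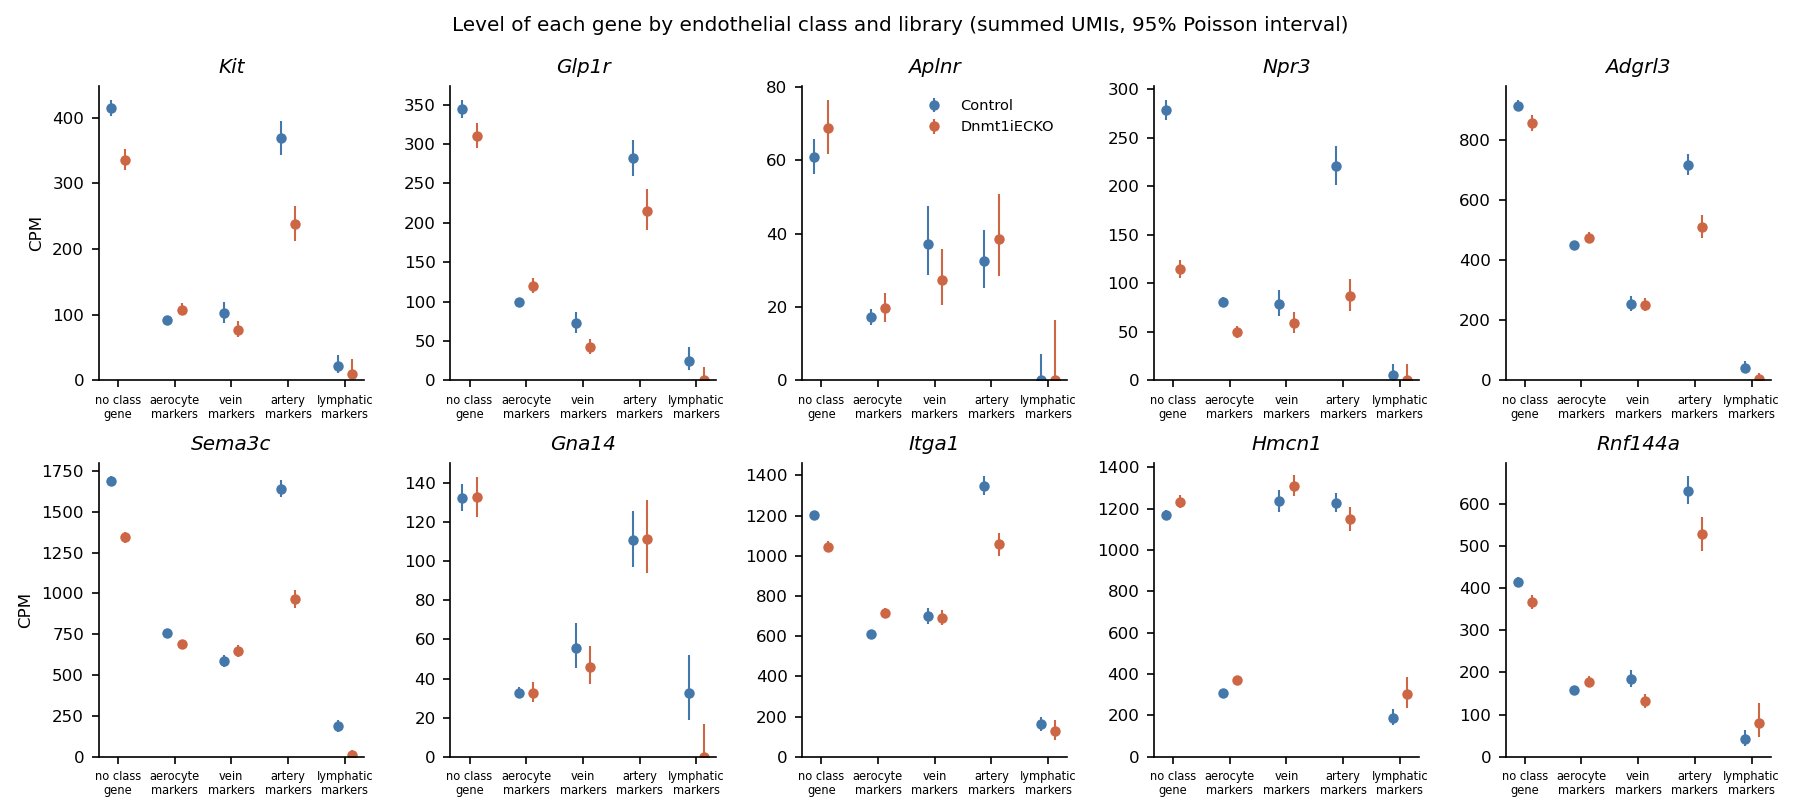
Level of each of the 10 genes (y axis, CPM of summed cells, from 0) in cells without class genes and in cells with at least 3 aerocyte, vein, artery or lymphatic markers (x axis), control in blue and Dnmt1iECKO in orange, with 95% Poisson intervals. All genes are lower in aerocyte-marker than in class-gene-free cells, Hmcn1 is as high in vein-marker cells, and Npr3 is lower in Dnmt1iECKO in the first 4 classes.

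Binning cells by their Ednrb and Car4 UMIs, also after seeing the data, showed the same separation without markers of other genes. All cells were thinned to 2000 UMIs, which left out 356 control and 172 Dnmt1iECKO cells that were shallower. The median number of the 10 genes per cell was 6 in control cells with 0 such UMIs, 5 with 1, 4 with 2 to 4, and 2 with 5 or more. In Dnmt1iECKO it was 5, 5, 4 and 2. The drop thus came above a single UMI. Npr3 was detected in 38.3% of control cells with 0 such UMIs and 36.5% with 1, and in Dnmt1iECKO in 21.4% and 28.3%. Kit was detected in 49.7% of control cells with 0 such UMIs and in 5.57% of those with 5 or more, and in Dnmt1iECKO in 41.1% and 7.55%. Itga1 changed less, from 82.3% to 56.0% in control and from 77.8% to 65.5% in Dnmt1iECKO. Adgrl3 and Sema3c kept 42.4% and 47.7% of control cells in the highest bin, so their presence in a cell did not set it apart from aerocytes the way that of Kit, Glp1r, Npr3, Aplnr or Gna14 did (1.39% to 8.68% of cells).

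**Figure D2:**
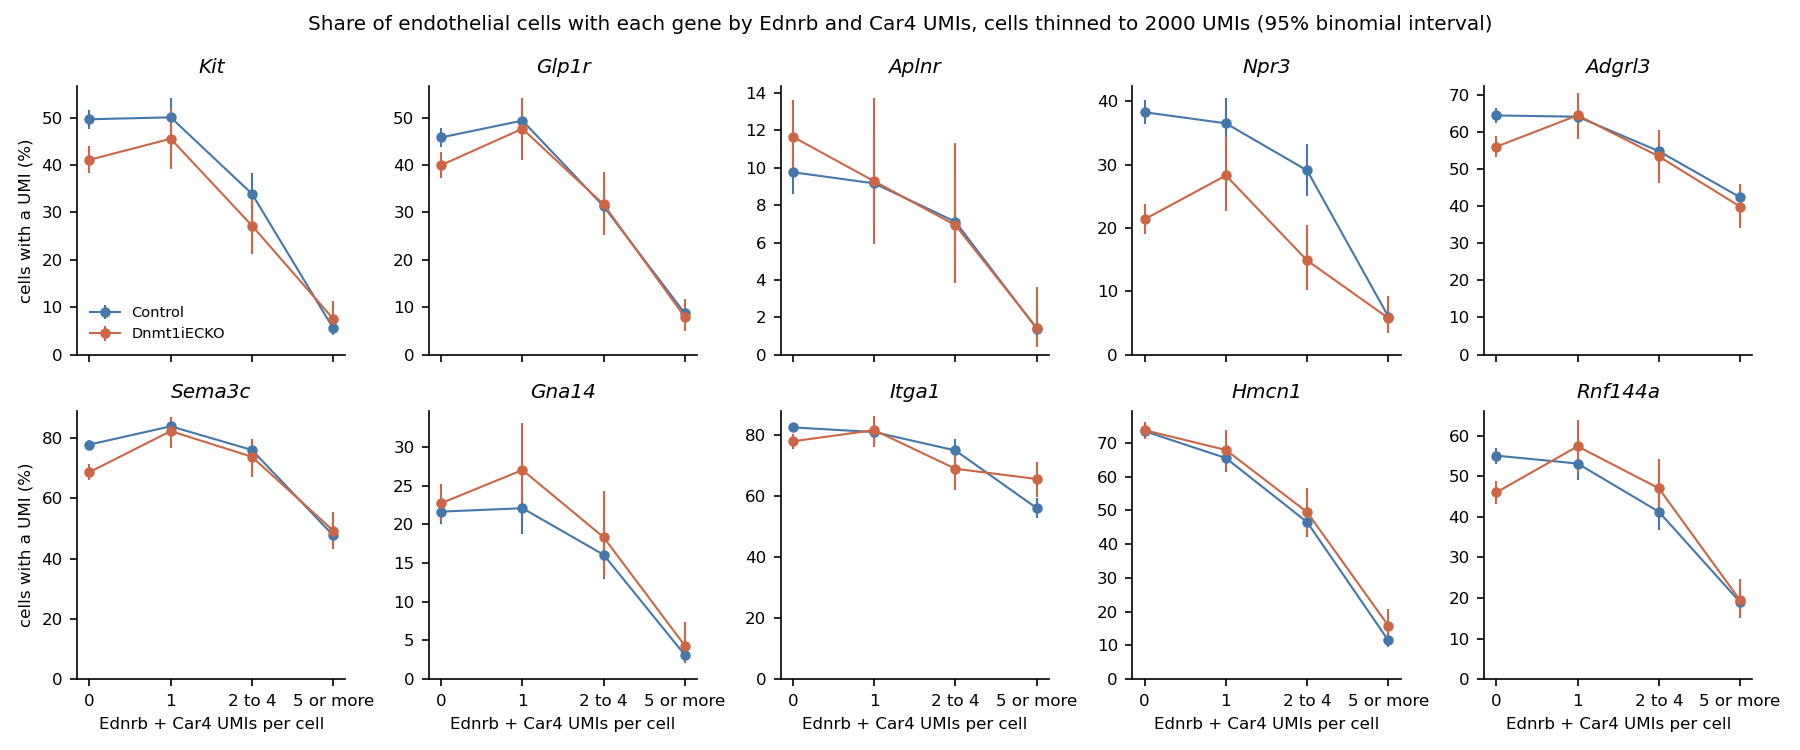
Share of endothelial cells with a UMI of each gene (y axis, percent) by the number of Ednrb and Car4 UMIs in the cell (x axis, 0, 1, 2 to 4, 5 or more), cells thinned to 2000 UMIs, control in blue and Dnmt1iECKO in orange, with 95% binomial intervals. Shares at 1 UMI are near those at 0 in control and for most genes higher in Dnmt1iECKO, and drop beyond, to 5.57% for Kit and 56.0% for Itga1 in control.

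Most of the list was also lower in vein cells. Against cells with Slc6a2 or Selp only, all 10 genes were higher in cells without class genes, 2 of them past 2-fold in control and 5 in Dnmt1iECKO (4.72% and 7.25% of all genes). Cells with at least 3 of 6 vein markers (99 in control, 116 in Dnmt1iECKO) had lower levels of 9 of 10 genes than cells without class genes, 7 of them past 2-fold in each library (8.71% and 9.65% of all genes). Glp1r differed most, at 345 CPM without class genes and 72.7 in vein-marker cells of control, and 310.3 and 42.4 in Dnmt1iECKO. Hmcn1 was at 1172 and 1237 in control and 1234 and 1311 in Dnmt1iECKO, and against vein-gene cells it was 1.15-fold and 1.11-fold higher.

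Artery-marker cells (189 in control, 98 in Dnmt1iECKO) shared most of the list. None of the 10 genes differed from cells without class genes by 2-fold in the higher direction (6.81% and 7.75% of all genes), and the median log2 ratio was 0.21 in control and 0.43 in Dnmt1iECKO. Rnf144a was higher in artery-marker cells, at 631 CPM against 414 without class genes in control, and 528 against 367 in Dnmt1iECKO. Itga1 was also higher there in control, at 1348 against 1203. Aplnr leaned the other way, at 32.4 in control artery-marker cells and 60.9 without class genes. Against cells with Gja5 or Bmx only, Aplnr was the 1 gene past 2-fold in each library, at 28.4 in control and 18.3 CPM in Dnmt1iECKO (2.75% and 3.47% of all genes). In the 3-marker classes the levels thus set these genes apart from aerocytes and veins more than from arteries. By class genes alone, the median log2 ratios against aerocyte-gene cells were 0.34 in control and 0.04 in Dnmt1iECKO. Against artery-gene cells they were 0.32 and 0.35, and against vein-gene cells 0.86 and 0.93.

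Lymphatic cells, recognised by 3 of 6 lymphatic markers, had low levels of the list. In the 33 control cells Kit was at 21.1 CPM and Npr3 at 5.74. Itga1, Sema3c and Hmcn1 were higher, at 161, 186 and 188. The 15 Dnmt1iECKO cells were too few to order the genes.

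Outside the endothelial gate, several members had UMIs in other cells. Itga1 reached 1736 CPM in 35 pericyte-marker cells of control and 1443 in 31 of Dnmt1iECKO, and Adgrl3 784 and 669.6. Hmcn1 stood at 593 and 402 in fibroblast-marker cells. Rnf144a was detected in 25.9% of 54 control and 28.7% of 265 Dnmt1iECKO neutrophil-marker cells thinned to 2000 UMIs. In mesothelial-marker cells (6 and 14) Sema3c stood at 706 and 440.4, and in the pericyte-marker cells Npr3 stood at 91.5 and 77.7. Cells that should lack the receptors held unequal levels of them. In alveolar type 1 cells (67 and 40) Kit was at 42.3 and 56.2 CPM and Glp1r at 52.0 and 85.7. The control neutrophil-marker cells also held Kit at 125 and Glp1r at 131, against 5.23 and 0.65 in Dnmt1iECKO. At 2000 UMIs, 34 of the 54 control cells had none of the 10 genes and 4 had at least 5. In Dnmt1iECKO 0 of 265 had at least 3. The part of these few control cells in the levels was not tested. Alveolar type 2 cells (79 and 32) had medians of 29115 and 32374 UMIs. Kit was at 4.97 and 20.9 CPM there, against 298 and 268 in endothelial cells. The thinned shares with Glp1r there were 2.53% and 3.12%, against 37.0% and 35.4%.

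The difference between the libraries was then read within classes. In cells without class genes Npr3 stood at 279 CPM in control and 114 in Dnmt1iECKO, a log2 ratio of -1.28 (interval -1.42 to -1.15). It was the only gene of 10 past 1.5-fold (3.08% of 10267 genes past it lower, 8.11% higher). Kit was at 415 and 336 (log2 ratio -0.30) and Sema3c at 1691 and 1343 (log2 ratio -0.33). The median log2 ratio of the 10 genes was -0.16, and that of all genes tested -0.04. With Ptprc as the only exclusion the class held 1449 and 669 cells and all 10 genes were past 1.5-fold lower (12.2% of 11851 genes past it lower, 11.7% higher), with a median of -0.90. Npr3 was then at 209.7 and 51.2 CPM (log2 ratio -2.04) and Kit at 309 and 149.6 (-1.05). The wider gate only adds cells, so no member lost UMIs. Kit had 4743 and 1787 UMIs under it, against 4323 and 1658 in the narrower gate. The lower CPM thus came with a larger total of UMIs of other genes in the class. The number of members past 1.5-fold in this class thus ran from 1 to 10 with the gate, and cells with 3 markers of another type made up 12.6% of control and 16.4% of Dnmt1iECKO cells under the wider gate.

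Cells with markers of other types had unequal shares of this class in the 2 libraries. Cells without class genes but with at least 3 of 6 fibroblast markers (Dcn, Col1a1, Col1a2, Col3a1, Pdgfra, Lum) numbered 27 (2.11%) in control and 39 (7.0%) in Dnmt1iECKO. Those with at least 3 of 6 alveolar type 1 markers went the other way, at 69 (5.38%) and 14 (2.51%). The gate genes moved too, with Cdh5 at 995 and 846 CPM in this class and Pecam1 at 1044 and 834. Summed over all endothelial cells, the 6 fibroblast markers stood at 478 and 969 CPM, and all 6 were detected in both libraries. The 6 alveolar type 1 markers stood at 2329 and 1675 CPM, of which the highest single marker made up 1817 and 1275. Leaving out all cells with 3 markers of any other type, a choice made after seeing the data, turned the median of the 10 genes in this class from -0.16 to 0.15, with 8 genes higher and 2 lower in Dnmt1iECKO. Requiring UMIs of both Cdh5 and Pecam1 gave 0.10, with 7 higher and 3 lower. The direction of 5 members in this class thus changed when cells with 3 markers of another type were left out. Among them were Kit (-0.30, and 0.03 without those cells), Itga1 (-0.20 and 0.11) and Rnf144a (-0.17 and 0.15). Aplnr (0.18), Hmcn1 (0.07) and Gna14 (0.004) changed direction with Ptprc as the only exclusion, to -0.59, -0.66 and -0.73.

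Npr3 kept its direction. Without the cells that carried 3 markers of another type it was at 309 and 159 CPM in cells without class genes (log2 ratio -0.96, interval -1.10 to -0.83), and in all endothelial cells at 233 and 129.9 (log2 ratio -0.84). Sema3c, the other lower member, was at 1896 and 1861 there (log2 ratio -0.03).

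In cells with Ednrb or Car4 only, 8 of 10 genes were higher in Dnmt1iECKO and the median log2 ratio was 0.14, against -0.01 for all genes tested. Adgrl3 was at 772 and 911 CPM (log2 ratio 0.24), Gna14 at 98.0 and 119 (0.28), and Aplnr at 42.5 and 57.4 (0.43). Npr3 was again the only one past 1.5-fold, at 221 and 145 (log2 ratio -0.61), where 2.77% of 11486 genes were past it lower and 3.27% higher. Leaving out cells with 3 markers of another type moved the median to 0.16.

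**Figure D3:**
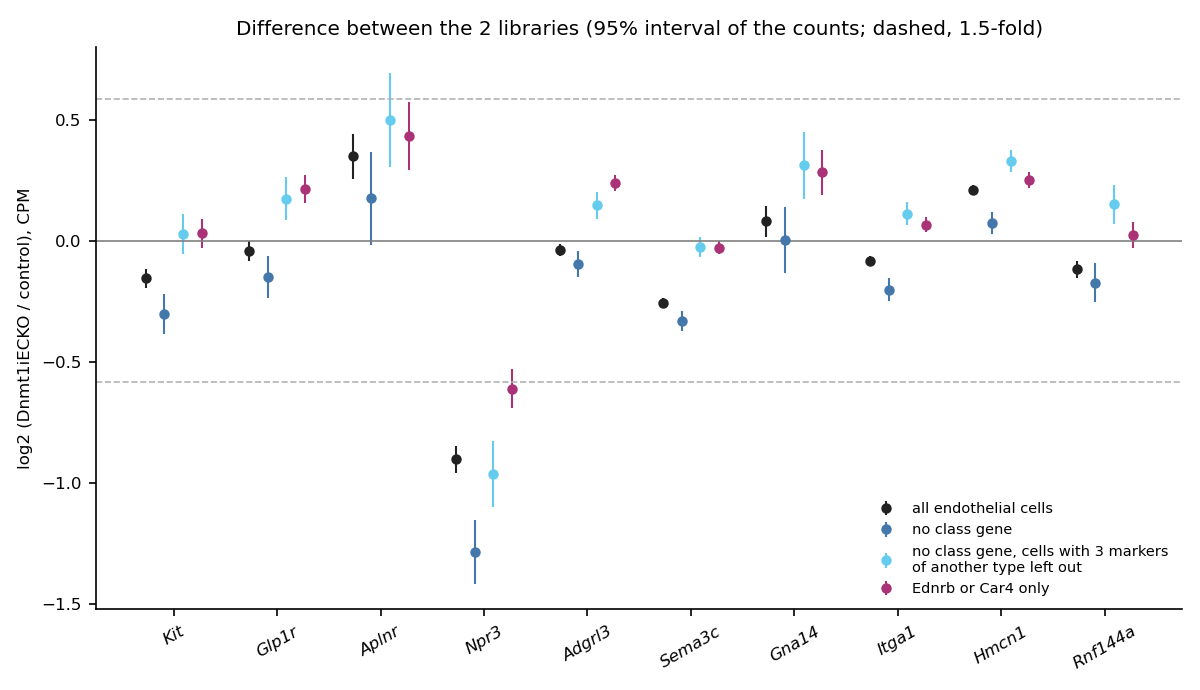
Log2 ratio of Dnmt1iECKO over control (y axis, from CPM) for each of the 10 genes (x axis) in all endothelial cells (black), cells without class genes (dark blue), the same without cells carrying 3 markers of another type (light blue) and cells with Ednrb or Car4 only (purple), with 95% intervals of the counts and dashed lines at 1.5-fold. Npr3 lies below the lower line in all 4 sets, at -0.90, -1.28, -0.96 and -0.61, and the other 9 genes lie between the lines.

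In vein-gene cells (199 and 170) and artery-gene cells (207 and 135) the list leaned lower in Dnmt1iECKO. The median log2 ratio was -0.36 in vein-gene cells, where Npr3 was at 137 and 73.7 CPM (log2 ratio -0.90) and Glp1r at 142 and 86.1 (-0.72). These were the 2 genes past 1.5-fold lower there (2.84% of 7070 genes lower, 3.15% higher). In artery-gene cells, where 9 genes had at least 100 UMIs, the median was -0.33. Npr3 was at 216 and 92.8 (log2 ratio -1.22) and Sema3c at 1228 and 752 (-0.71), the 2 genes of 9 past 1.5-fold lower (4.02% of 6074 lower, 3.97% higher). In aerocyte-marker cells the median was 0.18 and Npr3, at 80.8 and 49.2 (-0.72), was the 1 gene of 10 past it (2.23% of 9903 lower, 1.96% higher).

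Endothelial states gave the same reading for Npr3. In cells with 3 type I interferon markers (317 and 95) it was at 253 CPM in control and 147 in Dnmt1iECKO (log2 ratio -0.78). In cells with 3 interferon gamma markers (102 and 84) it was at 84.1 and 30.2 (-1.48), and in proliferating cells (75 and 42) at 89.9 and 53.0 (-0.76). These cells are counted in the classes above too. Aplnr went the other way in all 3 states, with log2 ratios of 0.64 in type I interferon, 0.73 in proliferating and 0.99 in interferon gamma cells. In the last it stood at 45.2 and 89.6 and was detected in 5.88% of those cells in control and 21.4% in Dnmt1iECKO when thinned.

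Npr3 was lower both in the number of cells that had it and in those that carried the rest of the list. Thinned to 2000 UMIs, 30.3% of control cells and 19.2% of Dnmt1iECKO cells had a UMI of Npr3, against 1.27% and 6.25% of alveolar type 2 cells. The median UMI count per endothelial cell was 1 in control and 0 in Dnmt1iECKO, and the highest 38 and 28. Among cells with at least 5 of the other 9 genes, which numbered 2144 in control and 888 in Dnmt1iECKO, Npr3 was at 374 and 207 CPM (log2 ratio -0.86, interval -0.92 to -0.79) and in 47.2% and 30.3% of cells. Among those with at most 2 of the other 9 it was at 36.2 and 22.1 (log2 ratio -0.71). Both sets were chosen after seeing the data and were formed anew for each gene. With at least 5 of the other 9, log2 ratios were -0.14 for Kit (484 and 439.7) and 0.05 for Glp1r (463 and 480.2). They were 0.13 for Adgrl3 (1203 and 1317) and 0.39 for Aplnr (61.2 and 80.4, interval 0.28 to 0.51). With at most 2 of the other 9 they were 0.25 for Kit, -0.21 for Glp1r, -0.17 for Adgrl3 and 0.95 for Aplnr. Npr3 was also lower in fibroblast-marker cells outside the gate, at 20.9 (97 UMIs) and 7.22 (66 UMIs). In pericyte-marker cells it was at 91.5 and 77.7 (log2 ratio -0.24, with an interval that held 0), and in alveolar type 1 cells it was higher, at 41.2 and 58.9 (0.52, with an interval that held 0).

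Weighting the class levels by the class shares of control changed little for Npr3 (log2 ratio -0.82) and brought the median of the list to 0.00497. Aerocyte-gene cells were fewer and vein-gene cells more in Dnmt1iECKO (4.10% and 8.24% of endothelial cells), which moves with the levels summed over all cells.

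The 10 genes were found together in the same cells more often than their single shares give. At 2000 UMIs per cell, 72.1% of 4492 control cells (interval 70.8 to 73.4) and 70.9% of 1892 Dnmt1iECKO cells (68.8 to 72.9) had at least 3 of the 10, and the libraries differed by less than these intervals. At least 5 were found in 51.6% and 49.0%. The control cells fell around a low and a high number, with 533 cells at 2 genes, 448 at 3 and 665 at 6. The median was 6 in cells without class genes and 2 in aerocyte-marker cells, in both libraries.

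**Figure D4:**
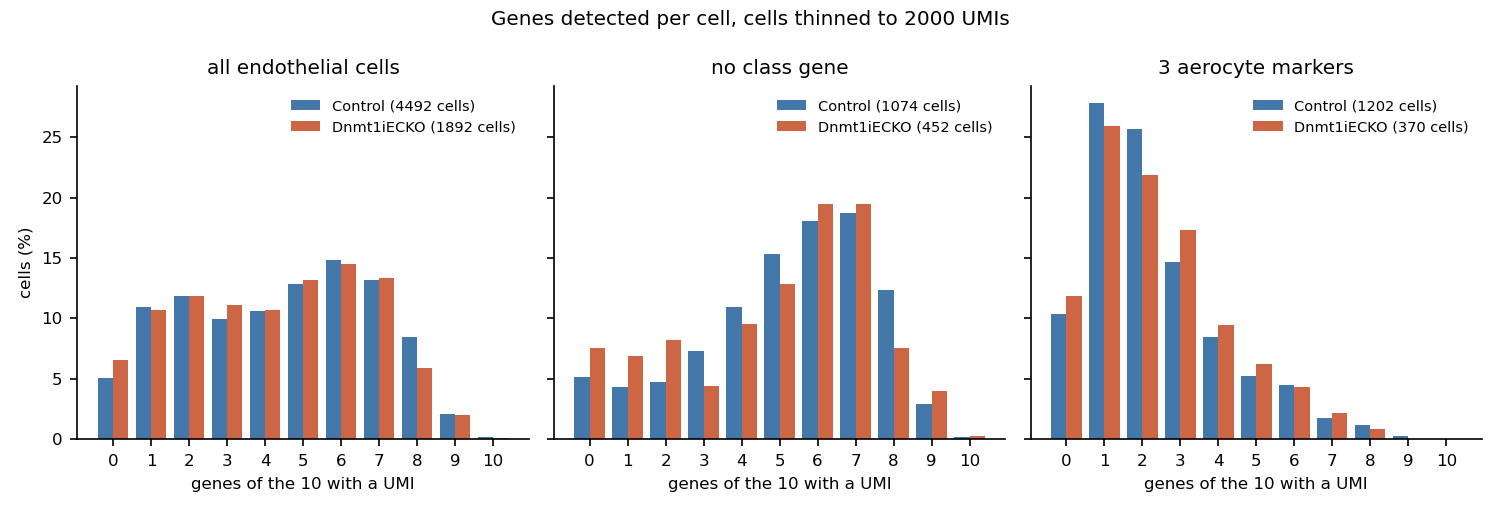
Percent of cells (y axis, from 0) by how many of the 10 genes they held at 2000 UMIs (x axis), for all endothelial cells, cells without class genes and cells with 3 aerocyte markers, control in blue and Dnmt1iECKO in orange. Cells without class genes mostly held 5 to 8 of the genes and aerocyte-marker cells 1 to 3, in both libraries.

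Each of the 45 pairs was detected in the same cell more often than the product of its shares in both libraries. The interval lay above 1 for all 45 in control and for 41 in Dnmt1iECKO, not for Sema3c with Aplnr (0.97 to 1.36), among others. The median of observed over expected was 1.27 in control, from 1.09 to 1.52, and 1.30 in Dnmt1iECKO, from 1.13 to 1.71. In control the highest was Kit with Gna14, found together in 457 cells where 301 were expected. In Dnmt1iECKO it was Kit with Aplnr, in 107 cells where 62.4 were expected. Sema3c with Itga1 was the lowest in both, at 1.09 and 1.13, but these genes were in 72.2% and 75.8% of control cells, so that no value above 1.32 was possible. Glp1r with Npr3 stood at 1.52 and 1.59.

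Joint detection was weaker within a class. Within cells that had no class-gene UMI at 2000 UMIs (2165 and 913 cells) the median was 1.12 in control and 1.17 in Dnmt1iECKO, with 44 of 45 pairs above 1 in each. With the aerocyte gene Ednrb, all 10 genes were found together less often than expected, with medians of 0.40 in control and 0.43 in Dnmt1iECKO. With Car4 the medians were 0.68 and 0.80. With the artery gene Gja5 the median was 1.00 in control and 0.68 in Dnmt1iECKO.

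**Figure D5:**
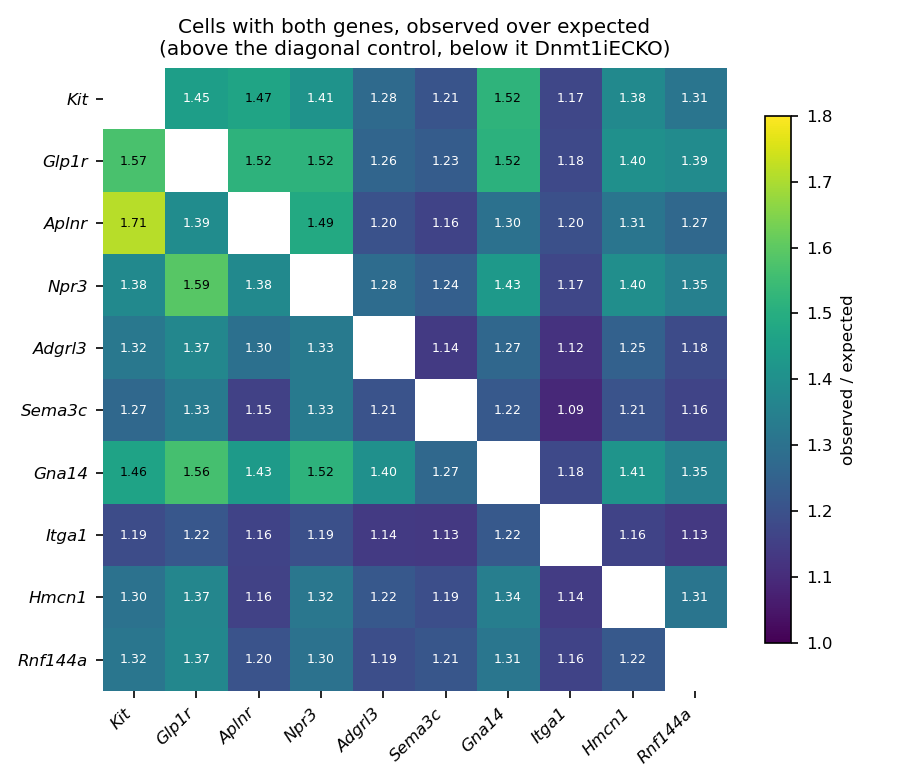
Number of cells with both genes divided by the number expected from their shares, for the 45 pairs of the 10 genes at 2000 UMIs per cell, control above the diagonal and Dnmt1iECKO below it, on a colour scale that starts at 1. Every pair is above 1, the highest is Kit with Aplnr in Dnmt1iECKO (1.71), and pairs with Itga1 stay at or below 1.22.

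The genes whose levels most resembled a member's were sought by Pearson correlation of log2(CPM + 10) over 30 sums, 15 cell classes in each of 2 libraries. The classes share cells, so r is a description. They also include fibroblast, T cell, B cell, macrophage and monocyte, and neutrophil classes outside the gate. A high r thus also holds the contrast of endothelial with other cells and does not single out a capillary pattern. Kit was most like Gpihbp1 (r = 0.98), which anchors lipoprotein lipase on capillaries, and next Glp1r (0.98). Glp1r was most like Bmp6, a growth factor of the BMP family. Npr3 was most like Wfdc1 and Sema3c (both 0.96). Rnf144a was most like Tspan2 (0.96) and the arterial connexin Gja4 (0.94). Hmcn1 was most like Hoxa5 (0.99), Itga1 like 2900026A02Rik (0.98), Gna14 like Bend7 (0.99), Adgrl3 like Map4k3 (0.98), Sema3c like Nckap5 (0.99) and Aplnr like Chrm2 (0.95).

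Of 34 ligands, partners and relatives of the members, 25 had at least 100 UMIs in endothelial cells, and their median log2 ratio was -0.10. The list held 2 genes past 1.5-fold higher and 4 past it lower, next to 7.51% and 2.15% of all genes. Among ligands, Kitl was at 1226 CPM in control and 863 in Dnmt1iECKO (log2 ratio -0.51) and Apln at 154 and 94.3 (-0.71), both genes of aerocytes. In cells without class genes Kitl stood at 431 and 379.9, and Apln at 21.5 and 23.5. Of the natriuretic family, Npr1, the signalling receptor that shares ligands with Npr3, was at 77.0 and 71.3 (-0.11). The peptide Nppb gave 149 UMIs in control and 12 in Dnmt1iECKO (log2 ratio -2.52), from 62 and 12 cells, and went the other way with Ptprc as the only exclusion (15.9 and 24.7 CPM). The semaphorin receptors Nrp1 and Plxna2 stood at 1095 and 937, and 131 and 128, while Nrp2 was higher, at 55.1 and 88.7 (0.69). Itgb1, the chain that pairs with Itga1, was at 806 and 793, and Gnaq, a relative of Gna14, at 519 and 485. Tenm3, a teneurin that binds latrophilins, was the other gene past 1.5-fold higher, at 10.6 and 19.6 (0.88), and Itga10 (-1.01) and Gna15 (-0.65) were lower at under 3 CPM.

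A further 8 genes had been listed as general capillary genes. Of these, 0 were past 1.5-fold in endothelial cells (7.51% of all genes past it higher, 2.15% lower) and their median log2 ratio was -0.07. Gpihbp1 was at 456 and 425 CPM, Bmp6 at 475 and 472, and Cxcl12 at 220.0 and 319 (0.53). For 2 of them the levels went against the name. Cxcl12 was at 967 CPM in control artery-marker cells against 250 without class genes, and at 1342 against 309 in Dnmt1iECKO. Clec1a was higher in aerocyte-marker cells, at 803 against 496 without class genes in control and 799.6 against 473 in Dnmt1iECKO. In cells without class genes Plvap, which encodes an endothelial diaphragm protein, was the 1 gene past 1.5-fold, at 746 and 421 (-0.83). Of all genes in that class, 3.08% were past it lower and 8.11% higher. The fibroblast-marker cells counted above belong to this class as well.

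Kit (75574916-75656722), Sema3c (17574281-17730268) and Adgrl3 (81020138-81825133) are on the plus strand of chromosome 5 of GRCm38 (GENCODE M21). Npr3 lies at chr15:11839896-11907287, Itga1 at chr13:114953096-115101964, Hmcn1 at chr1:150562524-150993435 and Rnf144a at chr12:26300964-26415254, these 4 on the minus strand. Glp1r (chr17:30901817-30940791), Aplnr (chr2:85136225-85139923) and Gna14 (chr19:16435762-16610820) are also on the plus strand. Exons of Npr3, Hmcn1 and Adgrl3 overlap an annotated RNA on the opposite strand (Gm5144, Gm20631 and Gm16054), and how the counting treated strand is not given in the sources used here. Exons of Itga1 overlap Gm49395 on the same strand.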

How the data were processed

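Single-cell 3′ libraries of sorted endothelial cells were read from the deposited filtered matrices of whole-number UMI counts per gene and cell, which the authors made with Cell Ranger 9.0.1 on mm10. Here, in Python 3.11.15 with scanpy 1.11.5, cells over 10% mitochondrial UMIs or under 500 genes were dropped, and 257 control and 263 Dnmt1iECKO doublets were removed by Scrublet score (0.4% per 1000 cells) in place of DoubletFinder, which the study used. The 9000-gene minimum of the study's methods left 1 endothelial cell per library. UMIs of cells were summed per class and library and expressed as CPM. For shares and co-detection, 2000 UMIs were drawn per cell. With 1 library per condition no p-value was computed. Genes were described by 1.5-fold between libraries and 2-fold between classes, against all genes with at least 100 UMIs. Named genes were the 10 members, the gate and class genes, set lists of partners and of further capillary genes, and the genes most like a member. Members and lists were chosen with earlier results of these data known. On simulated counts the ratio's intervals held the true value for 95.4% of 12909 genes. These counts were Poisson draws, as the intervals assume, so this checks the calculation and not coverage where cells are uneven. The summed endothelial cells held 55634122 UMIs in control and 25735855 in Dnmt1iECKO. Alternatives changed the gate, doublet share, filters, depth of thinning, class rule and scaling.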

Additional observations from a re-analysis of the deposited data

Results flagged for a closer look

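Glp1r, Itga1 and Adgrl3 stood out because their ratio between the libraries had opposite directions in 2 classes, with counting intervals on either side of 0. In cells without class genes the log2 ratios of Dnmt1iECKO over control were -0.15 for Glp1r, -0.20 for Itga1 and -0.10 for Adgrl3. In cells with Ednrb or Car4 only they were 0.21, 0.0664 and 0.24. The difference between the classes was not tested, since each condition had 1 library. Without the cells that carried 3 markers of another cell type, the log2 ratios in cells without class genes were 0.17 for Glp1r, 0.11 for Itga1 and 0.15 for Adgrl3, in the same direction as in cells with Ednrb or Car4. With Ptprc as the only exclusion they were -0.87, -0.93 and -0.81.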

How the results depend on the processing

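No paired analysis was possible because each condition had 1 library. Depth limits Aplnr and Gna14, with a median of 0 UMIs per cell in both libraries, and Npr3, with 0 in Dnmt1iECKO. Npr3 stayed lower in Dnmt1iECKO under every alternative run, with log2 ratios from -1.04 to -0.82 in endothelial cells and from -2.04 to -0.96 in cells without class genes. In all endothelial cells the number of members past 1.5-fold was 1 under each of these, while a lower fold limit gave 2 and a limit of 2-fold gave 0. In cells without class genes it was 10 with only Ptprc excluded (12.2% of all genes lower, 11.7% higher), and 1 with both gate genes and without cells of other types. The share of all genes was not computed at the other fold limits or for the gates with both genes or without cells of other types. Those counts therefore cannot be read against it. The median log2 ratio of the members (-0.06) was -0.0375 with doublets at 0.8% per 1000 cells, -0.22 with only Ptprc excluded, -0.011 with both Cdh5 and Pecam1, 0.0182 as a mean of single cells, 0.00497 with control class composition and -0.00976 without cells of other types (added after seeing the data). In cells without class genes (-0.16) the same alternatives gave -0.0751, -0.90, 0.10, 0.0175 and, without cells of other types, 0.15. For that class over aerocyte-gene cells, control (0.34) and Dnmt1iECKO (0.04) gave 0.0364 and -0.999 with only Ptprc excluded, 0.59 and 0.57 with both gate genes, 0.61 and 0.19 with class genes from 2 UMIs, 0.84 and 0.43 with thinned classes, 0.52 and 0.46 as a mean of single cells, 1.79 and 1.29 with 3 aerocyte markers, and 0.47 and 0.48 without cells of other types. The share of cells with at least 3 members was 70.4% and 68.3% with only Ptprc excluded, 73.7% and 74.5% with both gate genes, 85.8% and 84.3% at 5000 UMIs, 86.6% and 86.2% unthinned, and 73.6% and 74.5% without cells of other types. Observed over expected co-detection in control was 1.15 at 5000 UMIs and 1.14 in cells without class genes. Of 130 alternative log2 ratios of single members in endothelial cells, 10 changed sign, and of 120 in cells without class genes, 19 did. The cause was not tested, except that fewer or other cells enter by construction.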

Other observations

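Hmcn1 and Aplnr differed more between the libraries in cells that carried few of the other genes. Among cells with at most 2 of the other 9 genes, Hmcn1 stood at 238 CPM in control (1389 cells) and 411 in Dnmt1iECKO (637 cells), a log2 ratio of 0.79, and was in 17.3% and 31.1% of cells thinned to 2000 UMIs. Aplnr stood there at 17.6 and 33.8 (log2 ratio 0.95, from 275 and 283 UMIs). In cells with at least 5 of the other 9 the log2 ratios were 0.18 for Hmcn1 and 0.39 for Aplnr. Vein-marker cells, in which Hmcn1 was at 1237 and 1311, made up 2.04% of control and 5.62% of Dnmt1iECKO endothelial cells, and cells with 3 fibroblast markers, which held Hmcn1 at 593 and 402 CPM outside the gate, 1.16% and 3.29%. The part of either in these values was not tested. The vein gene Selp went from 102 to 378 CPM over all endothelial cells, and Slc6a2 from 36.5 to 97.7.

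Proliferating cells (3 of 6 cycle markers) held the list unevenly. In control Kit was at 255 CPM there and Gna14 at 119, next to 298 and 104 in all endothelial cells, whereas Sema3c was at 631 against 1464, Hmcn1 at 284 against 908 and Glp1r at 102 against 274. The Dnmt1iECKO library gave 222 for Kit and 98.9 for Gna14, and 574, 355 and 72.0 for Sema3c, Hmcn1 and Glp1r. With 75 and 42 cells of medians of 15212 and 25520.5 UMIs, no difference between the libraries was tested.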
